A study of Mus musculus with 9 samples.

Results

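The genes described here are the immediate early genes Fos, Jun, Junb, Egr1, Atf3, Klf6 and Ier2 and the MAPK phosphatases Dusp1, Dusp6 and Dusp8, measured by RNA sequencing of mouse liver. They were picked by name as rows of the deposited table, 10 of 32285 genes, with earlier results of the same libraries known. The levels and changes of these members are therefore a description, and no p-value is given for them. Livers came from Tet-OFF mice, which carry a CreERT2 transgene under the ubiquitous CAG promoter, a stop cassette that Cre removes in front of the transactivator tTA, and a tetO-driven Venus-ires-mCherry reporter at Rosa26. Per the labels, the mice of the Control, Dox and Tc groups were all given tamoxifen, which activates CreERT2. The Dox group then drank doxycycline hyclate and the Tc group tetracycline hydrochloride, each at 2 mg/mL with 10 mg/mL sucrose, for 7 days from 4 weeks of age. The Control group had tamoxifen alone, and whether its water held sucrose is not given in the sources used here. Both drugs stop tTA from driving the reporter, so a drug and the loss of reporter expression cannot be told apart in a comparison with controls. Each group has 3 libraries, and the study asked what either drug does to liver transcription.

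Immediate early genes are transcribed within minutes of a growth factor, cytokine or stress signal, without the need for new protein synthesis. The MAP kinases ERK, JNK and p38 carry much of that signal to factors such as ELK1, SRF, ATF2 and CREB that already sit in the nucleus. Fos, Jun, Junb and Atf3 encode basic leucine zipper proteins that form AP-1 type dimers, Egr1 and Klf6 encode zinc finger factors, and Ier2 encodes a small nuclear protein. The dual-specificity phosphatases switch the kinases off again. DUSP1 is a nuclear enzyme acting on p38, JNK and ERK, DUSP6 is cytoplasmic and prefers ERK, and DUSP8 prefers JNK and p38. In the liver, these genes are known for their brief rise after partial hepatectomy and after injury.

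The members are compact genes. Over the principal transcripts of the GENCODE M21 annotation (GRCm38), their median span was 3821 bases with 3.5 exons, against 23048 bases and 9 exons over the 11702 tested genes with such a transcript. Jun, Junb and Ier2 each have a single exon. Dusp8 is the longest member, with 7 exons over 15783 bases. RefSeq promoter windows (GRCm38.p6, from 250 bases before the start to 50 after it) were matched for 8 of the 10 members, all but Egr1 and Ier2. The cyclic AMP response element TGACGTCA, a palindrome bound by CREB and ATF dimers, was in the windows of 2 of the 8, Dusp1 and Dusp8, and in 1.79% of all 32851 windows. Its core TGACG, searched on both strands and counted also inside the longer element, was in 5 of the 8 (Atf3, Dusp1, Dusp8, Fos and Junb) and in 20.8% of all windows. A TATAAA stretch was in the windows of Fos and Junb and in 13.6% of all. Searches on both strands for the AP-1 motif TGANTCA, the EGR motif GCGNGGGCG and the CArG box bound by SRF matched none of the 8, and matched 7.81%, 5.55% and 1.63% of all windows. A match is a run of letters, not a measured site, and sites more than 250 bases before the start were not searched. The stretches below are shown because Dusp8 and Dusp1 share the full element while Dusp8 and not Dusp1 was highest in Dox library 2, and because Fos holds the core at 2 places ahead of a TATAAA. Capitals mark TGACGTCA, TGACG and TATAAA, and each runs 5′ to 3′ on the strand of the gene. Those of Dusp8 (minus strand, chr7:142095285-142095444) and Fos (plus strand, chr12:85473730-85473889) cover the 160 bases before the start. That of Dusp1 (minus strand, chr17:26508523-26508632) covers bases 160 to 51 before it.
Dusp8: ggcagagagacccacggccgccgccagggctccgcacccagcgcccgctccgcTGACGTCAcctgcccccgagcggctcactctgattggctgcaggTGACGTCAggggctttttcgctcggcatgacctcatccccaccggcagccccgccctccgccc
Dusp1: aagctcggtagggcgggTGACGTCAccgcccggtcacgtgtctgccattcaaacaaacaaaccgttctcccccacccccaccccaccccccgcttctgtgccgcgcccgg
Fos: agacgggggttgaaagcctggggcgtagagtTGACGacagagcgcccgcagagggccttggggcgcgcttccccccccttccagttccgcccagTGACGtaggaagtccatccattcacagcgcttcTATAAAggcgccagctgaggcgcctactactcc
In Dusp8 the elements begin 107 and 63 bases before the start, and in Dusp1 the element begins 143 bases before it. In Fos the cores begin 129 and 66 bases before the start.

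Values are normalized counts, that is reads on a gene divided by a size factor of the library. Whole reads were recovered from them, and the depth was 7426136 to 12183041 reads on genes per library. Library 3 of each group can be written closely as a weighted sum of libraries 1 and 2, so a group holds about 2 profiles that can be told apart rather than 3. The study describes the 3 samples of a group as independent biological replicates, and how this likeness arose was not tested. With weights fitted over the tested genes other than the members, the Dox library 3 took 61.3% of Dox library 1 and 34.5% of Dox library 2. The weights were 58.4% and 41.7% for controls and 61.2% and 36.9% for Tc. In Dox library 3 the members lay at 0.87 to 1.16 times the weighted sum (median 1.0), in Tc library 3 at 0.72 to 1.32 times, and in Control library 3 at 0.51 to 1.20 times, where the lowest was Dusp8 with 3 reads. For this reason a p-value from all 9 libraries is likely to be smaller than it should be, and means ± SD over 3 libraries are likely to understate the spread between mice. The changes of the members and the genes called are therefore also given without libraries 3.

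**Figure D1:**
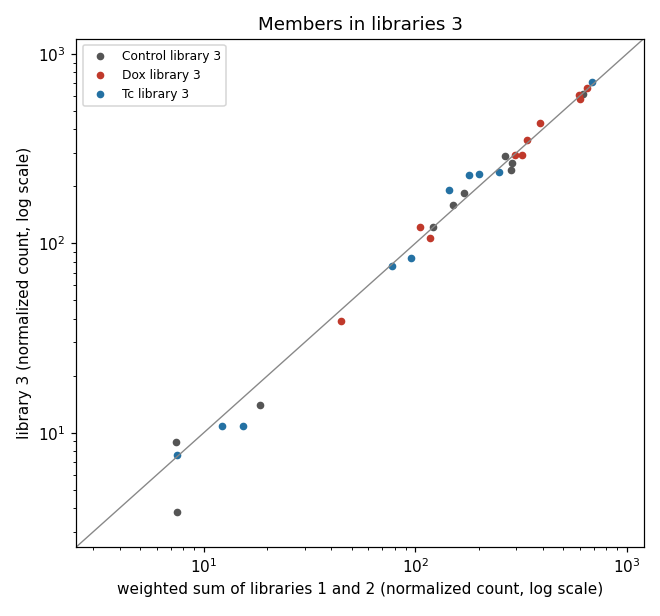
Observed normalized count of each of the 10 members in library 3 of its group (y axis, log scale) against the weighted sum of libraries 1 and 2 of that group (x axis, log scale), with the line of equality. The Dox points lie at 0.87 to 1.16 times the sum, and the widest departures are the low counts of Dusp8 in the control and of Fos in the control and Tc libraries and the Tc values of Junb and Ier2.

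The Dox livers differed widely from each other. Dox library 2 was the highest of all 9 libraries for 9 of the 10 members, Dusp1 being the exception, and 33.4% of the 12100 tested genes were highest there. It exceeded Dox library 1 over 2-fold for 8 members (17.7% of all tested genes), and exceeded every Control and Tc library over 2-fold for 7 members (6.83% of all tested genes). The median log2 ratio of Dox library 2 to Dox library 1 was 3.52 over the members and 0.02 over all tested genes. Dox library 3 lay between the other Dox libraries for all 10, which its likeness to a weighted sum of them largely fixes. Since the members were chosen with these values known, nothing is read from their shares.

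**Figure D2:**
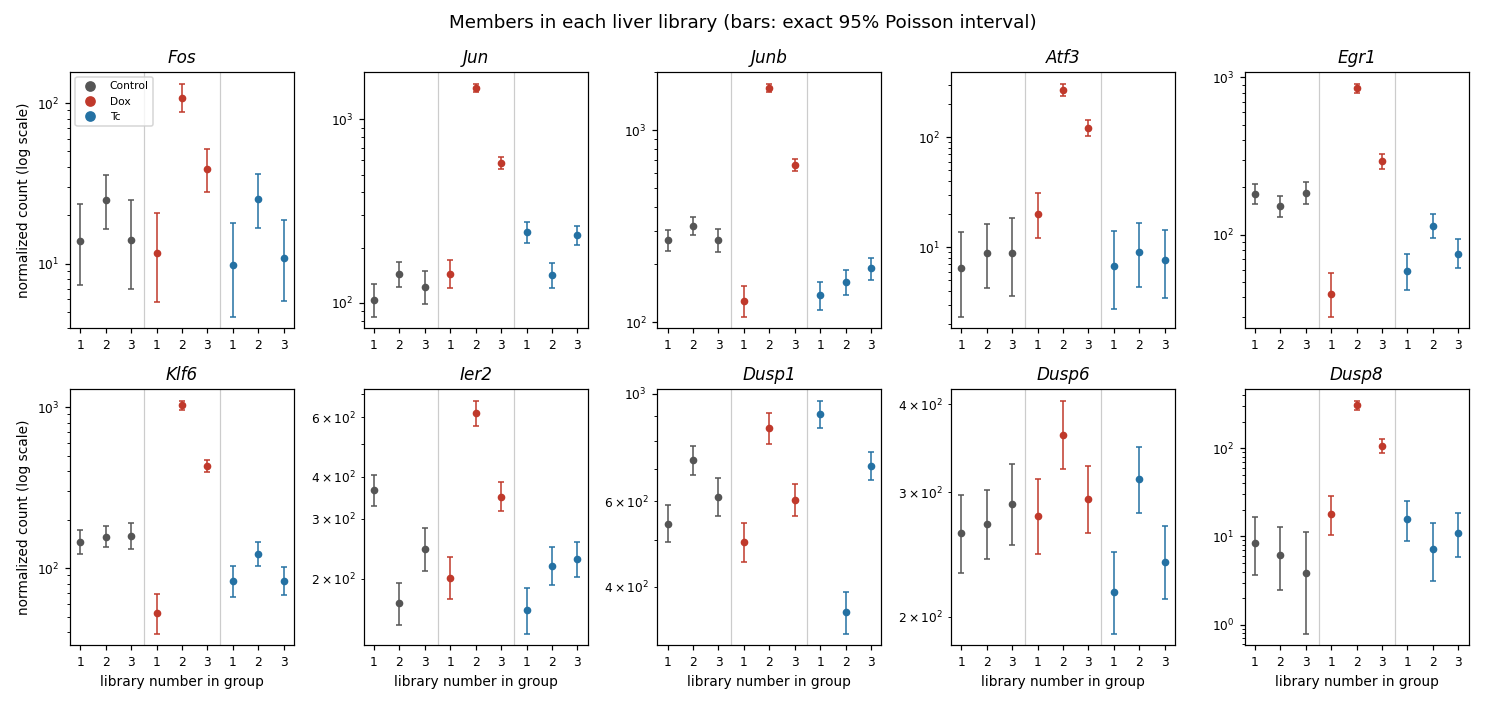
Normalized counts (y axis, log scale, a separate range for each gene) of the 10 members in the 3 libraries of each group (x axis), with exact Poisson intervals at 95% that cover counting error only. Dox library 2 is the top point for every member but Dusp1, and Dox library 1 lies among or below the controls for all but Atf3, Dusp8 and Jun.

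Among the AP-1 genes, Atf3, which encodes a stress-induced factor that often represses its targets, was highest in all 3 Dox libraries. Atf3 (chromosome 1, 191170296 to 191218039, minus strand, GRCm38) had 6.4, 8.8 and 8.9 normalized counts in Control libraries 1, 2 and 3, 20.0, 270.3 and 122.3 in the Dox libraries, and 6.8, 9.0 and 7.6 in the Tc libraries. The Dox libraries overlapped with neither other group. Even the lowest of them, Dox library 1, had 19 reads, with an exact 95% Poisson interval of 12.0 to 31.2 normalized counts that touches those of the controls, the highest of which ends at 18.3. The log2 fold change (on the scale of log2(normalized count + 1), as for all those below) was 3.31 ± 0.78 (SE) for Dox against control and -0.03 ± 0.78 for Tc against control. Without libraries 3 these were 3.15 and 0.06. Control and Tc libraries together averaged 7.92 normalized counts of Atf3, under the minimum of 10 set for testing, so this gene was tested only because of its Dox values. The same holds for Dusp8, with 8.71.

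Jun (chromosome 4, 95049034 to 95052222, minus strand) encodes c-JUN, the AP-1 partner that JNK phosphorylates. It had 103.7, 144.2 and 122.1 normalized counts in the Control libraries, 144.3, 1480.4 and 577.1 in the Dox libraries and 242.2, 141.2 and 233.3 in the Tc libraries. Dox library 1 was level with Control library 2, so the Dox and control values of Jun barely failed to overlap, and Tc libraries 1 and 3 were above every control while Tc library 2 was not. With Dox the log2 fold change was 2.02 ± 0.70, and with Tc 0.70 ± 0.70, or 1.91 and 0.59 without libraries 3.

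Junb (chromosome 8, 84974484 to 84978718, minus strand) encodes a JUN relative that can restrain c-JUN. It had 266.7, 316.7 and 267.0 normalized counts in the Control libraries, 128.5, 1661.0 and 659.0 in the Dox libraries and 137.7, 161.0 and 190.3 in the Tc libraries. Dox library 1 and all Tc libraries were below every control, and Dox libraries 2 and 3 were above every control. The log2 fold change of 0.88 ± 0.75 with Dox averages over both sides, and that with Tc was -0.80 ± 0.75 (0.67 and -0.96 without libraries 3). Part of the annotated Junb span overlaps Prdx2 on the other strand, which had 517.6 to 910.4 normalized counts. Whether the counting used strand is not given in the sources used here.

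Fos (chromosome 12, 85473890 to 85477273, plus strand), the classical immediate early gene and AP-1 partner of JUN, was low in these livers. It had 13.8, 24.8 and 14.0 normalized counts in the Control libraries, 11.6, 108.1 and 38.7 in the Dox libraries and 9.8, 25.2 and 10.9 in the Tc libraries. With 10 to 28 reads in each Control and Tc library and 11 in Dox library 1, their intervals overlapped, whereas Dox library 2 (94 reads, 87.4 to 132.3 normalized counts) was above them all. Its log2 fold change was 1.09 ± 0.72 with Dox and -0.25 ± 0.72 with Tc (0.93 and -0.22 without libraries 3).

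The zinc finger genes showed a low and a high side of the controls within the Dox group. Egr1 (chromosome 18, 34859823 to 34864984, plus strand) had 182.1, 152.2 and 184.3 normalized counts in the Control libraries, 42.1, 850.1 and 292.1 in the Dox libraries and 58.6, 114.2 and 75.8 in the Tc libraries. Dox library 1 was the lowest of the 9 and Dox library 2 the highest, a 20.2-fold range within the group, while all Tc libraries were below every control. The mean was 172.9 ± 18.0 (SD, n = 3) in controls and 82.9 ± 28.5 (SD, n = 3) with Tc. This gave a log2 fold change of 0.35 ± 0.89 with Dox and -1.10 ± 0.89 with Tc (0.19 and -1.02 without libraries 3).

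Klf6 (chromosome 13, 5861482 to 5870394, plus strand), a Krüppel-like factor, had 146.1, 156.6 and 158.9 normalized counts in the Control libraries, 52.6, 1028.4 and 430.2 in the Dox libraries and 83.0, 122.3 and 83.4 in the Tc libraries. Its order of libraries was that of Egr1 at the extremes, with Dox library 1 lowest, the Tc libraries below every control and Dox library 2 highest. Controls varied by 4.45% (coefficient of variation) and the Dox libraries by 97.7%. For Klf6 the log2 fold change was 0.89 ± 0.88 with Dox and -0.69 ± 0.88 with Tc (0.63 and -0.58 without libraries 3).

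Ier2 (chromosome 8, 84661331 to 84662852, minus strand) varied among the controls themselves, at 364.1, 169.0 and 244.1 normalized counts. The Dox libraries had 201.1, 616.6 and 349.3 and the Tc libraries 161.1, 218.5 and 228.2, so both drug groups overlapped with the controls. Its Dox library 2 was 3.07-fold above Dox library 1, the smallest such ratio among the 7 immediate early genes. The log2 fold change was 0.51 ± 0.41 with Dox and -0.30 ± 0.41 with Tc (0.50 and -0.40 without libraries 3).

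The 3 phosphatases did not share a pattern. Dusp8 (chromosome 7, 142079490 to 142095843, minus strand) had 8.5, 6.2 and 3.8 normalized counts in the Control libraries, 17.9, 309.4 and 107.3 in the Dox libraries and 15.6, 7.2 and 10.9 in the Tc libraries. All Dox libraries were above every other library, but Dox library 1 rests on 17 reads (interval 10.4 to 28.7) and Tc library 1 on 16 (8.93 to 25.4), so these cannot be told apart at this depth. Dox library 2 was 36.5-fold above the highest control. For Dusp8 the log2 fold change was 3.64 ± 0.87 with Dox and 0.77 ± 0.87 with Tc (3.21 and 0.50 without libraries 3).

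Dusp1 had 539.8, 730.8 and 612.8 normalized counts in the Control libraries, 493.8, 848.9 and 603.5 in the Dox libraries and 908.2, 354.3 and 710.0 in the Tc libraries. Its highest and lowest libraries were both in the Tc group, 2.56-fold apart, and every group overlapped with the others. The log2 fold change was 0.02 ± 0.34 with Dox and -0.03 ± 0.34 with Tc (0.04 and -0.15 without libraries 3). The long annotated form of Dusp1 (chromosome 17, 26505590 to 26562128, minus strand) overlaps Ergic1 on the other strand, which had 232.4 to 842.7 normalized counts.

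Dusp6 (chromosome 10, 99263231 to 99267489, plus strand), a transcriptional target of ERK, was the steadiest member, with 262.5, 270.7 and 288.6 normalized counts in the Control libraries, 278.0, 362.3 and 293.8 in the Dox libraries and 216.8, 312.9 and 239.2 in the Tc libraries. Dox library 2 was 1.26-fold above the highest control. Log2 fold changes were 0.18 ± 0.17 with Dox and -0.11 ± 0.17 with Tc (0.25 and -0.03 without libraries 3). Dusp8 was 17.3-fold higher in Dox library 2 than in Dox library 1, Dusp1 1.72-fold and Dusp6 1.30-fold.

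**Figure D3:**
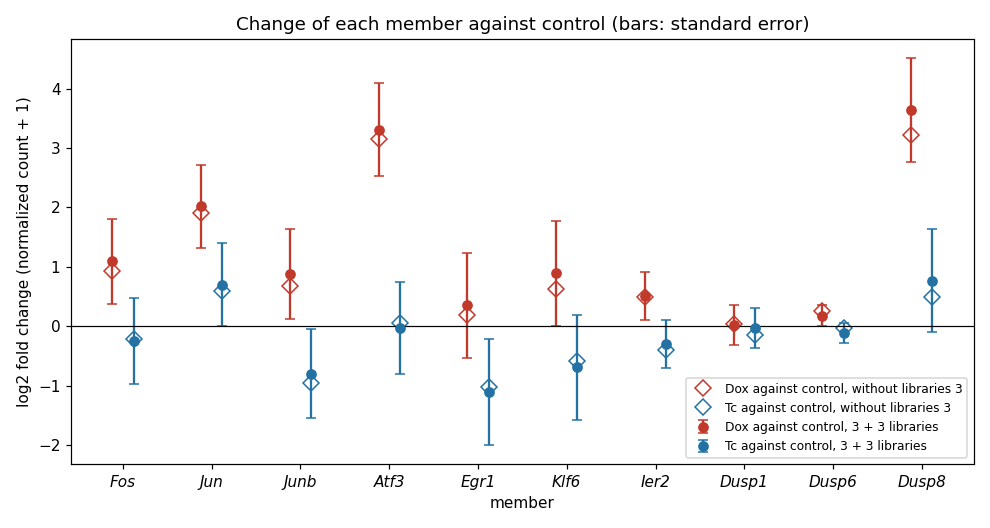
Log2 fold change of each member against control (y axis, on the scale of log2(normalized count + 1)) for Dox (red) and Tc (blue), filled circles with standard errors from the limma fit of 9 libraries, and open diamonds from the fit without libraries 3. Both comparisons use the same controls; with Dox the values run from 0.02 for Dusp1 to 3.64 for Dusp8, and with Tc from -1.10 for Egr1 to 0.77 for Dusp8.

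Differential expression was called by limma where the Benjamini-Hochberg adjusted p was under 0.05 and the change over 2-fold. With Dox against control 2 of the 10 members were called, Atf3 and Dusp8, both higher, against 5.00% of all tested genes. That share counts both directions, 138 genes higher and 467 lower, and so do the other shares of genes called. With the library number as a block, since Dox and Tc libraries of the same number deviated together, 1 member (Atf3) was called. No member was called for Tc against control (0.165% of all tested genes) or Dox against Tc (0.215%). At an unadjusted p under 0.05 these fits had 0 and 2 members. DESeq2 on the recovered reads called 3 members for Dox against control (Atf3, Dusp8 and Jun, where 8.71% of genes were called), 0 for Tc against control (1.41%) and 6 for Dox against Tc (Atf3, Dusp8, Egr1, Jun, Junb and Klf6, all higher with Dox, 4.67%), and edgeR called 2, 0 and 0. Without libraries 3, limma called no member with Dox, as it called no gene at all (0%), with 1 member at an unadjusted p under 0.05. DESeq2 then called Atf3 and Dusp8 for Dox against control (0.851% of genes) and Atf3 for Dox against Tc (0.244%). Leaving out Dox library 3, or any single Control or Tc library, left limma with 0 members called for Dox against control. Nothing is read from the members' counts, which the choice of members fixes in part.

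Which Dox libraries were in the fit decided the direction for several members. Without Dox library 1, limma called 7 members higher with Dox than in controls, Atf3, Dusp8, Egr1, Fos, Jun, Junb and Klf6, where 12.4% of all tested genes were called. These were 662 higher and 838 lower, and each share in this paragraph counts both directions. With Dox library 1 as the only Dox library, it called 3 members, Egr1, Junb and Klf6, all lower than in controls, where 9.38% of all tested genes were called, and the lone library was assumed to vary like the other groups. In that fit the log2 fold change was -2.01 for Egr1, -1.53 for Klf6, -1.13 for Junb, -0.51 for Fos and -0.29 for Ier2. It was 1.23 for Atf3 and 1.45 for Dusp8, which stayed above the controls, and 0.24 for Jun. Without Dox library 2, limma called 2 members, again Atf3 (2.51) and Dusp8 (2.71), where 9.11% of all tested genes were called. The log2 fold change was then -0.62 for Egr1, -0.03 for Klf6, 0.04 for Junb, 0.32 for Fos and 1.23 for Jun. Dox library 3 stayed in this fit and in the fit without Dox library 1. It took 61.3% of Dox library 1 and 34.5% of Dox library 2, so neither fit is free of the library left out.

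The groups did not overlap for 3 members in Dox against control, Atf3, Dusp8 and Jun, all higher with Dox, and 16.1% of all tested genes had every Dox library above every control. For Tc against control, Egr1, Junb and Klf6 were lower in every Tc library, and 14.9% of all tested genes lay lower without overlap. No member was higher in every Tc library, against 15.8% of all tested genes. For Dox against Tc, Atf3 and Dusp8 were higher without overlap, and 12.2% of all tested genes were. With libraries 3 close to weighted sums of the other libraries, such non-overlap is reached more easily than with 3 separate profiles per group. Nothing is read from these counts. The median log2 fold change of the members was 0.89 with Dox and -0.18 with Tc, against 0.00 over all tested genes in both.

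Markers of liver cell types moved between the libraries too. The summed level of 4 hepatocyte genes (Alb, Apoa1, Ttr and Serpina1c, which encode plasma proteins) was 1049046.9 to 1502088.0 normalized counts in controls, 709497.2 to 1182261.5 with Tc and 286590.7 to 729385.8 with Dox. Most of this sum is Alb, at 607452.5 in Dox library 1 against 956160.4 to 1408836.3 in controls. The other 3 were higher in Dox library 1 than in every control, for example Ttr, which encodes transthyretin, at 55767.1 against 32043.6 to 37008.5, and Serpina1c was above every control in all Tc libraries. Dox library 2 was the lowest of the 9 for each of the 4, with Ttr at 6796.0. None of the 5 Kupffer cell markers was highest in Dox library 2, and their sum was 1538.4 in Dox library 1, 5440.9 in Dox library 2 and 5745.7 to 11390.4 in controls. Much of the sum in Dox library 2 was Marco, at 1824.4 against 238.2 to 2391.3 in controls. There Clec4f (899.5), Adgre1 (332.4), Cd5l (1960.1) and Vsig4 (424.5) were each below every control. Neutrophil markers summed to 2.1 in Dox library 1, 112.7 in Dox library 2 and 39.2 to 385.7 in controls, and 4 lymphocyte markers to 14.7 to 18.4 with Dox and 21.2 to 39.8 in controls. Of these, Mpo, Elane and Ngp and the B cell gene Ms4a1 were at 0 in at least 1 library. The sum of 5 sinusoidal endothelial markers was 1924.9 to 2454.7 with Dox, 2959.8 to 3498.1 with Tc and 4004.1 to 4125.6 in controls. In Dox library 2, however, Pecam1 (338.2) and Lyve1 (318.6) were the highest of the 9, and Clec4g (197.9) was the lowest. Stellate cell markers ranged from 2885.2 to 3341.6, 3464.9 to 4099.7 and 3430.7 to 3618.3 in the order Dox, Tc and control (in Dox library 2, 4 of the 5 were lowest of the 9, such as Col3a1 at 65.6, and Dcn was highest at 2298.3), cholangiocyte markers from 148.4 to 371.7, 254.9 to 335.4 and 199.9 to 243.5, and 4 erythroid markers from 646.5 to 2266.0, 1067.4 to 1923.7 and 1171.8 to 4581.8, with Hemgn at 0 in at least 1 library. The erythroid gene Alas2 was at 1367.8 in Dox library 1 and 1211.8 in Tc library 1, against 118.6 to 335.3 in controls. It was at 46.0 in Dox library 2 and 115.1 in Tc library 2. The globin genes Hbb-bs and Hba-a1 were below every control in all Dox and Tc libraries. None of 7 heat shock genes was highest in Dox library 2, and their sum was 5155.7 there against 5640.8 in Dox library 1 and 4524.1 to 4783.5 in controls. Most of this sum was Hspa8, at 4528.7 in Dox library 2. There Dnajb1 (117.3), Hsph1 (105.8) and Hspa1b (4.6) were the lowest of the 9, while Hspa8 and Hsp90aa1 (388.8) were above every control. Mitochondrial transcripts took 2.38% of the normalized counts in Dox library 2, the highest share, and 1.87% and 1.99% in Dox libraries 1 and 3. The share was 0.791% to 1.13% in controls and 1.01% to 1.69% with Tc, below every Dox library. Dox library 2 also had the lowest depth, 7426136 reads. The part of these differences in the members' levels was not tested, and in bulk tissue fewer cells of a type cannot be told apart from less RNA per cell.

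**Figure D4:**
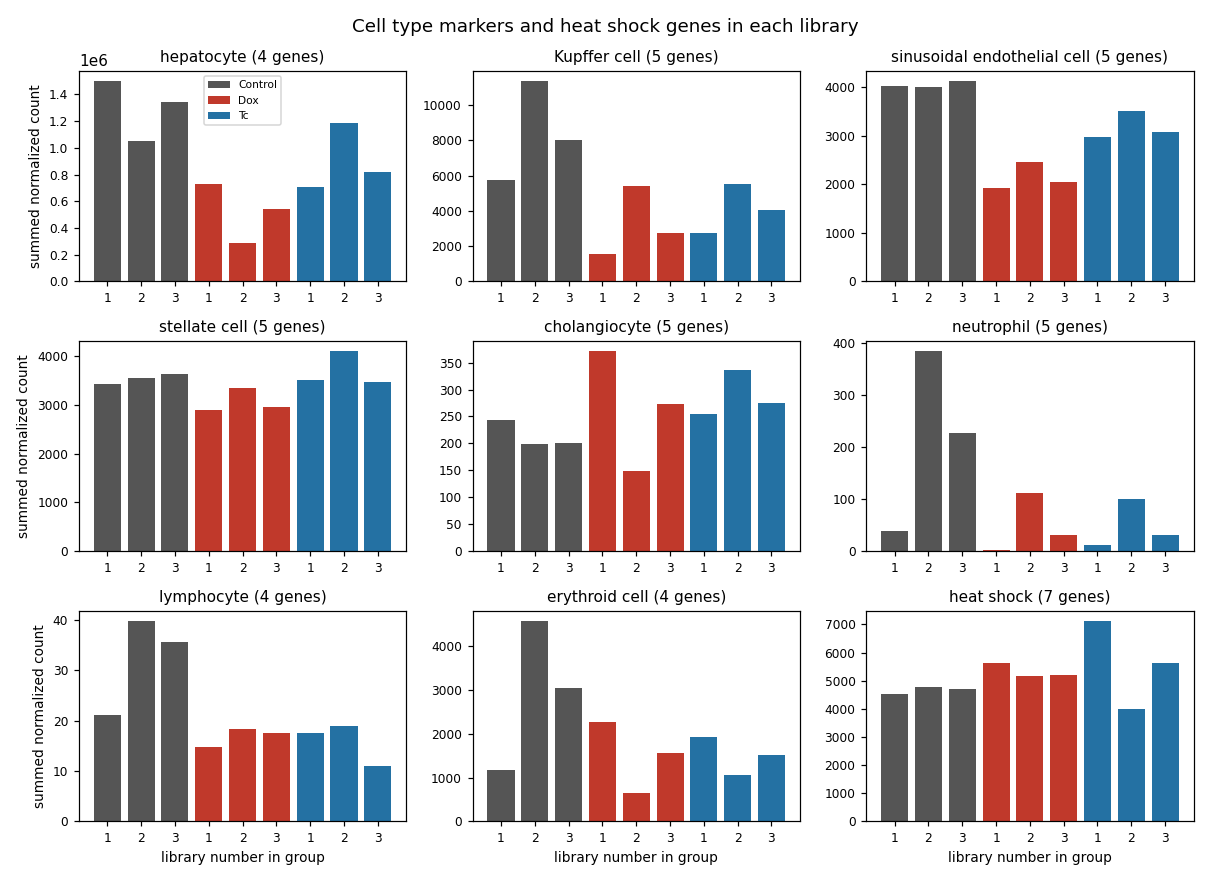
Summed normalized counts (y axis, linear from 0) of 8 cell type marker lists and of heat shock genes in the 3 libraries of each group (x axis). The hepatocyte bar is lowest in Dox library 2, at 286590.7, while the heat shock bar there, 5155.7, is lower than in Dox library 1.

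The 7 lists of related genes, none of them a member, held 122 genes, of which 107 passed the filter. Like the members, the lists were chosen with earlier results of these data known. Most genes below were then named because they were called or moved most in their list. Their adjusted p-values are therefore a description of these libraries and not an independent test. With all 9 libraries, limma called 7 of the 107 for Dox against control, 4 higher and 3 lower, where 5.00% of all tested genes were called, and 0 for either other comparison, where 18 (Tc against control) and 25 (Dox against Tc) had an unadjusted p under 0.05. Without libraries 3, limma called none of them, with 8 at an unadjusted p under 0.05 for Dox against control, and DESeq2 called 2 for Dox against control, Maff and Sik1, and 0 for either other comparison. Every other DESeq2 call of a pathway gene below was thus lost without libraries 3. With the library number as a block, limma called 3 for Dox against control (Gadd45a, Sik1 and Phlda1), so that Maff, Bhlhe40, Dusp14 and Elk3 were no longer called. The 7 limma calls became 0 without Dox library 3 or without any single Control library, 1 without Tc library 3, 4 without Tc library 1 and 27 without Dox library 1. Dox library 2 was highest for 62 of the 107 (57.9%), against 33.4% of all tested genes. This share differed between the lists. It was 73.3% and 80.0% for the 2 immediate early lists, 80.0% for other MAPK phosphatases and 73.3% for regulators. It was 44.4% for ERK feedback inhibitors, 34.5% for the MAPK cascades and 22.2% for atypical phosphatases. The median log2 ratio of Dox library 2 to Dox library 1 was 0.76 over the 107. It was -0.3 in both the cascade and the atypical phosphatase lists, and 0.09 to 1.84 in the others.

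Of 22 further transcription factors of the immediate early class, 15 were tested and 2 rose with Dox (5.00% of all tested genes were called, higher or lower), while 11 of the 15 were highest in Dox library 2 (33.4% of all tested genes). Maff, a small MAF protein that pairs with AP-1 and NRF2 type factors, had 14.2 to 27.5 normalized counts in controls, 55.8, 678.7 and 281.5 with Dox and 40.5 to 48.8 with Tc, a log2 fold change of 3.46 ± 0.75 with Dox (limma adjusted p = 0.0299, 0.57 without libraries 3). DESeq2 gave an adjusted p of 0.00791 for Maff without libraries 3. Bhlhe40, a clock-linked repressor, went the other way within the Dox group, with 4029.8, 1548.3 and 2911.2 against 871.2 to 1153.6 in controls (1.34 ± 0.31, limma adjusted p = 0.035, 0.572 without libraries 3). Nr4a1, an orphan nuclear receptor, had 16.8, 568.2 and 219.9 with Dox and 14.8 to 28.3 in controls, and did not pass in limma (2.67 ± 1.05, adjusted p = 0.137). DESeq2 called it for Dox against control (adjusted p = 0.000317, and 0.106 without libraries 3) and for Dox against Tc (0.000171 and 0.0919). Klf10 and Hes1, which respond to TGF-beta and to Notch, had log2 fold changes of -1.41 ± 0.37 and -0.72 ± 0.27 with Tc, and of 0.75 ± 0.37 and 0.39 ± 0.27 with Dox. None of these passed in limma, but DESeq2 called Klf10 lower with Tc than in controls (adjusted p = 0.0307) and both higher with Dox than with Tc (9.77e-06 for Klf10 and 0.0128 for Hes1). Without libraries 3 these adjusted p-values were 1, 0.149 and 0.767. Myc, which the naming rule did not pick and which was chosen after its values were seen, had 14.7, 1855.4 and 665.1 with Dox against 80.5 to 203.2 in controls. Fosb, Fosl1, Egr2, Egr3, Egr4, Nr4a2 and Nr4a3 were too low to be tested.

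Of 27 other immediate early and delayed early genes, 25 were tested, 2 rose and 1 fell with Dox, and 20 were highest in Dox library 2, beside the same 5.00% and 33.4% of all tested genes. Sik1, a salt-inducible kinase induced through CREB, had 143.3 to 242.4 normalized counts in controls, 443.3, 2378.8 and 1068.1 with Dox and 562.5 to 919.0 with Tc. Every library of either drug group was above every control, at a log2 fold change of 2.51 ± 0.53 with Dox (limma adjusted p = 0.027, 0.565 without libraries 3) and 1.99 ± 0.53 with Tc (limma adjusted p = 0.218; DESeq2 0.0104, and 1 without libraries 3). Gadd45a, a growth arrest gene, had 56.9, 157.6 and 88.0 with Dox and 8.5 to 35.4 in controls (2.33 ± 0.53, limma adjusted p = 0.0347, 0.566 without libraries 3). Phlda1 fell, from 432.6 to 948.4 in controls to 214.8, 74.8 and 161.0 with Dox (-2.21 ± 0.42, limma adjusted p = 0.0197, 0.559 without libraries 3). Btg2, an antiproliferative gene, was 60.0 in Dox library 1 and 3362.3 in Dox library 2 against 146.9 to 232.9 in controls, and Gadd45b was 4.2 and 899.5 against 16.8 to 63.6. These resembled Egr1 and Klf6 in lying on both sides of the controls, and their log2 fold changes, 1.72 ± 1.21 and 1.58 ± 1.62, did not pass in limma (adjusted p = 0.371 and 0.543). DESeq2 called Btg2 for Dox against control (adjusted p = 0.033, and 0.264 without libraries 3), and called both for Dox against Tc (0.0255 and 0.00206, and 0.319 and 0.426 without libraries 3). Plk3, a polo-like kinase, was at 1.23 ± 0.61 with Dox and 1.55 ± 0.61 with Tc (limma adjusted p = 0.218 with Dox).

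Of 7 other MAPK phosphatases, 5 were tested and none was called by limma, beside 5.00% of all tested genes for Dox against control. Nothing is read from counts this small, here or in the lists below. Dusp4, a nuclear phosphatase induced by ERK, came nearest, with 22.2 to 33.6 normalized counts in controls, 46.3, 170.2 and 82.7 with Dox and 15.3 to 38.1 with Tc (1.71 ± 0.50, limma adjusted p = 0.0682). DESeq2 called it (adjusted p = 0.00576, and 0.353 without libraries 3). Dusp16, which like Dusp8 prefers JNK and p38, was at 0.22 ± 0.18 and Dusp7, an ERK phosphatase, at -0.42 ± 0.16, both not called (limma adjusted p = 0.45 and 0.131). Dusp9, an ERK phosphatase, had no read in any Control or Tc library and 2.1, 29.9 and 10.6 normalized counts in the Dox libraries, which put it under the limit for testing in limma. DESeq2, and limma with no filter on low values, called it higher for Dox against control, and DESeq2 also for Dox against Tc. Of 12 atypical dual-specificity phosphatases, 9 were tested and limma called 1, beside the same 5.00% of all tested genes. This was Dusp14, which fell from 20.3 to 43.4 in controls to 8.8 to 13.7 with Dox (-1.54 ± 0.36, limma adjusted p = 0.0369, 0.573 without libraries 3). Dusp3 had an adjusted p of 0.0473 in limma at a change of 0.72 ± 0.18, under 2-fold. Dusp11, Dusp12, Dusp22 and Dusp28 had log2 fold changes of 0.36, -0.45, -0.37 and -0.27 with Dox and were not called.

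Among the kinases upstream, all 29 genes of the MAPK cascades were tested and limma called none, beside 5.00% of all tested genes for Dox against control. Map3k5, which encodes the stress kinase ASK1, was at 1.05 ± 0.27 (limma adjusted p = 0.0509) and Map2k6, which encodes a p38 activator, at 1.19 ± 0.51 (0.162). DESeq2 called both (adjusted p = 0.00427 and 0.0369, and 0.356 and 0.517 without libraries 3). The receptors Egfr and Met were at 0.53 ± 0.22 and -0.28 ± 0.38. Of 10 feedback inhibitors of ERK signalling, 9 were tested and none was called by limma, beside the same 5.00%. Spry1 was at 0.13 ± 0.35, Spry4 at -0.37 ± 0.22, Spred1 at 0.76 ± 0.25 and Spred2 at 0.83 ± 0.36. Of 15 regulators of immediate early transcription, all were tested and limma called 1, again beside 5.00% of all tested genes. This was Elk3, a ternary complex factor that can repress SRF targets. It fell from 119.6 to 152.2 in controls to 51.8 to 88.5 with Dox (-1.01 ± 0.21, limma adjusted p = 0.0275, 0.571 without libraries 3). Atf4, the factor of the integrated stress response that can induce Atf3, had 639.2, 1425.2 and 897.4 with Dox and 486.6 to 548.3 in controls (0.84 ± 0.26, limma adjusted p = 0.0747). Mrtfb, Crem and Stat3 were at 0.73 ± 0.24, 0.45 ± 0.22 and -0.44 ± 0.23 and were not called.

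**Figure D5:**
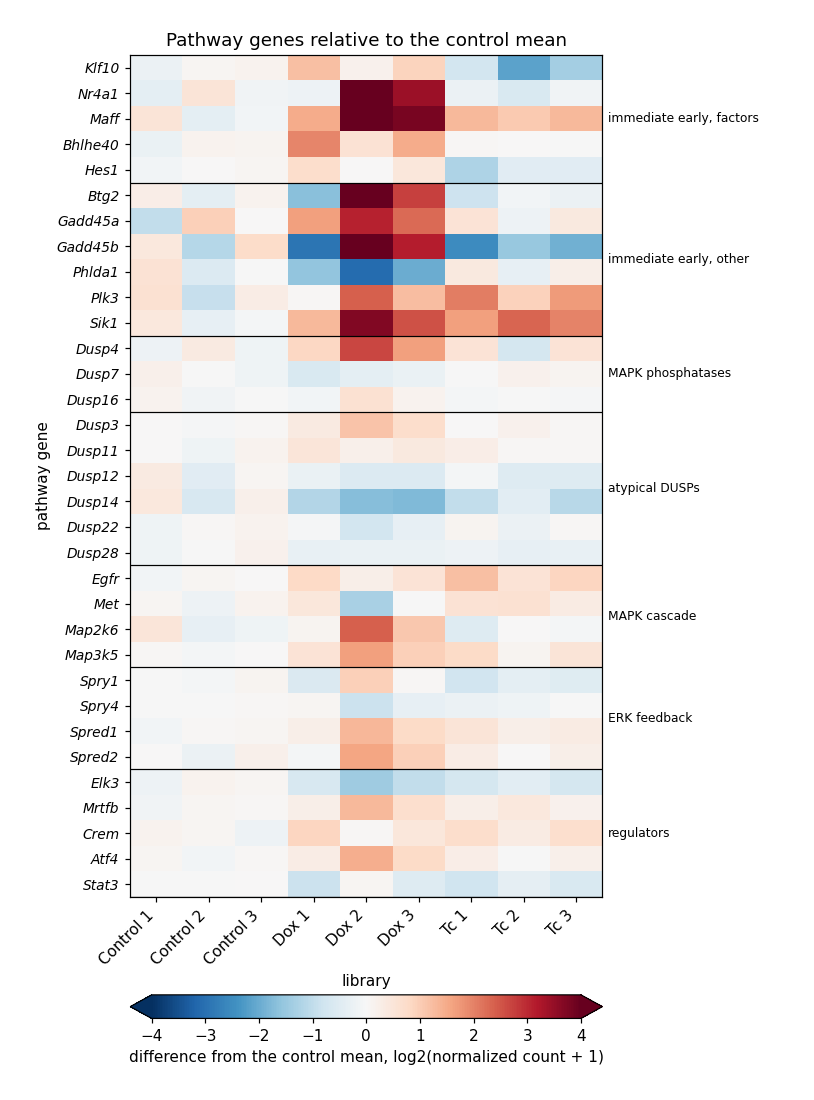
Difference of the pathway genes named by the rule from the mean of the 3 controls (colour, on the scale of log2(normalized count + 1)) in the 9 libraries (columns), grouped by list. Red marks higher and blue lower values, with colours saturated beyond 4; Nr4a1, Maff, Btg2, Gadd45b and Sik1 are darkest in Dox library 2, and the atypical phosphatases other than Dusp14 and the MAPK cascade genes other than Map2k6 and Map3k5 are paler.

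Genes whose profile over the 9 libraries was nearest to that of a member were looked for among 9370 other genes with a mean of at least 50, by the root-mean-square difference of centred log2 values. Egr1 was nearest to Tnfaip3, which encodes the NF-kappaB inhibitor A20, at 0.18, and to Baiap2 at 0.20. Tnfaip3 had 28.4, 539.5 and 187.4 normalized counts with Dox, 115.4 to 148.6 in controls and 43.0 to 78.2 with Tc, the order seen for Egr1. Klf6 was nearest to Cerk, a ceramide kinase gene (0.18), and also to Baiap2 (0.25), and Junb to Rhbdf2 (0.19) and Cirbp (0.21). Fos was nearest to the stress genes Sesn2 (0.27) and Bbc3 (0.28), both known p53 targets, and Sesn2 had 83.2, 840.9 and 311.4 with Dox against 96.3 to 118.2 in controls. Jun was nearest to Eppk1 (0.25) and Miip (0.39). For Atf3 and Dusp8 the nearest genes lay further off, with Setdb2 (0.45) and Nr4a1 (0.49) for Atf3 and Maff (0.40) and Phf11c (0.52) for Dusp8. These members also had the largest spread of their own (SD 1.81 and 1.87 on the log2 scale), to which the difference is not scaled. Ier2 was nearest to 9430038I01Rik (0.15) and Sds (0.16), Dusp1 to Sptb (0.21) and Cactin (0.22), and Dusp6 to Snx7 and Vbp1 (0.08 each), where the members' own spread was also small (SD 0.58, 0.39 and 0.20 on the log2 scale).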

How the data were processed

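RNA of 9 mouse liver libraries (3 Control, 3 Dox, 3 Tc) was sequenced single-end from a directional kit. Per the submitters' processing notes, reads were trimmed with cutadapt, aligned with STAR 2.7.11ac to mm10, counted per gene with HTSeq 2.0.5 and normalized with DESeq2 1.42.0. The deposited values are a signal, gene counts divided by each library's size factor; 32158 of 32285 identifiers had a symbol, and all columns were used. Whole reads were recovered for 100% of values (tolerance 0.01).

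Log2(normalized count + 1) was fitted with limma 3.58.1 (R 4.3.3, trend, all 9 libraries in 1 model) over 12100 genes (mean of 10 or more), with Benjamini-Hochberg adjustment; calls needed an adjusted p under 0.05 and a change over 2-fold. DESeq2 1.42.0 and edgeR 4.0.16 on recovered reads were alternatives, with other pseudocounts, filters, scaling and left-out libraries. All fits were tested on simulated data. Dox and Tc libraries of equal number, by the labels, deviated together (r = 0.29, 0.32 and 0.18), controls with neither (-0.08 to 0.06), so a replicate block was also fitted.

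The members and the gene lists were chosen with earlier results of these data known. Besides the members, pathway genes were named where called in any comparison with all libraries, or among the 3 of their list that moved most with Dox or Tc at a mean of at least 50, and the 2 nearest genes of each member. Nothing in the labels says that libraries of a group came from separate mice, though the study calls them biological replicates. The p-values measure the spread between these libraries. The Poisson intervals cover counting error only. The transgenes were not analysed here. Some genes that the naming rule or the marker lists hold are not reported here.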

Additional observations from a re-analysis of the deposited data

How the results depend on the processing

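Of the members, limma called Atf3 and Dusp8 for Dox against control with all 9 libraries. A pseudocount of 8 left 1 (Atf3), a mean of at least 50 left 0, a fit of only the 2 groups compared left 0, and limma without libraries 3 left 0; 1 member was called for Tc against control (Egr1, lower) in the fit of only the groups compared. DESeq2 called 6 members for Dox against Tc, or 1 without libraries 3. Of the pathway genes, called 7, 0 and 0 times (Dox against control, Tc against control, Dox against Tc), DESeq2 called 15, 2 and 14. Without libraries 3 limma called 0 and DESeq2 2 with Dox, the fit of only the groups compared called 0 with Dox and 4 with Tc, and Dox library 1 as the lone Dox library gave 13 against control and 3 against Tc.

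The counts over all tested genes were 605, 20 and 26. Tc against control had 10 and Dox against Tc 6 with a pseudocount of 0.1, Dox against Tc 0 with a pseudocount of 8, and Tc against control 32 and Dox against Tc 4 with no filter. In that order the counts were 369, 9 and 0 at a mean of at least 50. DESeq2 gave 1214, 202 and 633, edgeR 0 for Dox against Tc, and the fit of only the groups compared 333, 276 and 0. Without libraries 3 limma gave 0, 0 and 0 (unadjusted p under 0.05 for 1040, 239 and 454) and DESeq2 118 with Dox and 10 with Tc. With Dox library 1 alone the counts were 1135 for Dox against control and 106 for Dox against Tc. Scaling each library to the same total moved the median log2 fold change of all genes to 0.17 for Dox against control and 0.16 for Dox against Tc, changed the split of the Dox calls from 138 higher and 467 lower to 245 and 326, and left 3 calls for Dox against Tc.

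With the replicate block, 1 member (Atf3) and 3 pathway genes (Gadd45a, Sik1 and Phlda1) were called for Dox against control, and 1 pathway gene (Phlda1, lower with Dox) for Dox against Tc; over all genes Tc against control and Dox against Tc had 2 calls each. The block changed no other count by over 1.5 times.

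Leaving out each library in turn gave 0 to 7 members for Dox against control, 0 to 0 for Tc against control and 0 to 8 for Dox against Tc, with 0 to 27, 0 to 2 and 0 to 28 pathway genes and 33 to 1500, 1 to 221 and 0 to 1362 genes in all. The highest counts came without Dox library 1, apart from Tc against control (without Dox library 2), and the lowest for Dox against control over all genes without Control library 3. Where Dox library 1 was the lone Dox library, 16 log2 fold changes of members moved by more than the spread between libraries, and the other 601 values, under this and every other setting, moved by less. The low reads of Atf3, Dusp8 and Fos in Control and Tc libraries limit their folds. The causes of these changes were not tested.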
